A study of Macaca mulatta with 12 samples.

Results

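The 8 genes CACNA1A, CACNA1B, CACNA1C, CACNA1D, CACNA1E, CACNA1G, CACNA1H and CACNA1I encode the pore-forming alpha-1 subunits of the voltage-gated calcium channels that neurons use. They were taken by gene symbol from the deposited table, where each had 1 row, so they are 8 of 19708 genes. No row with a macaque identifier mapped to a second copy of any of them. The table holds RNA from single nuclei of frozen amygdala of rhesus macaques (Macaca mulatta), and the labels name no treatment, genotype or age. All 12 labelled samples belong to 1 group, with 3 amygdala numbers of 4 entries each in their titles, so the comparisons are between cell classes and between kinds of neuron. The 26400 nuclei carry 3 barcode suffixes, called barcode sets here, and no label ties a set to a sample. The pool therefore counts as 1 sample with no test behind any difference. Intervals are exact Poisson or Clopper-Pearson intervals at 95%, cover counting error only, and treat the unique molecular identifiers (UMIs) of 1 nucleus as independent. Values of the 3 sets show only whether a direction recurs, and the sets may be technical.

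A voltage-gated calcium channel opens when the membrane depolarises and lets calcium into the cell, where it triggers transmitter release, shapes firing and signals to the nucleus. The alpha-1 subunit forms the pore and sets the channel type, while alpha2delta and beta subunits control how many channels reach the membrane and how they gate. CACNA1A makes P/Q-type and CACNA1B N-type channels, the main presynaptic types. CACNA1E makes R-type channels. CACNA1C and CACNA1D make L-type channels, which sit largely on cell bodies and dendrites, and CACNA1C is also the pore of vascular smooth muscle. CACNA1G, CACNA1H and CACNA1I make T-type channels, which open at low voltage and support burst firing.

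Clusters were named from marker genes, and the pore genes were kept out of the clustering. The 10 named classes held 11055 excitatory neurons, 4119 inhibitory neurons, 6010 astrocytes, 792 ependymal cells, 440 oligodendrocytes, 377 oligodendrocyte precursors, 103 committed precursors, 193 microglia, 166 mural cells and 128 endothelial cells. Another 1155 nuclei stayed unnamed. Depth differed: the median was 7934 UMIs in excitatory and 5629 in inhibitory neurons, against 1733 in astrocytes and 1111 in microglia. Defining markers were read in each class. Excitatory markers summed to 2088 CPM (UMIs of the genes scaled to the total UMIs of the class) in excitatory neurons, with 10 of 10 genes detected. Inhibitory markers summed to 7984 CPM in inhibitory neurons, with 7 of 7 detected out of a list of 10, the rest not found by symbol. Transcripts of neuronal genes were also found in classes other than neurons. SLC17A7, the vesicular glutamate transporter of excitatory neurons, was at 134 CPM in excitatory neurons, 71.9 in astrocytes and 94.3 in mural cells. The neuronal splicing factor RBFOX3 was at 835 CPM in excitatory neurons and 52.4 in astrocytes. Levels are given below for each gene across classes and not between genes, because no transcript lengths of the files' build were used.

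Of the 8 pore genes, 5 had their highest level in a class of neurons. CACNA1A was highest in oligodendrocyte precursors, narrowly ahead of excitatory neurons, and CACNA1C and CACNA1H were highest in mural cells. Excitatory neurons held UMIs of a median of 6 of the 8 genes per nucleus, inhibitory neurons of 5, and astrocytes of 1. With every nucleus thinned to 1000 UMIs, the medians were 3, 2 and 0. The number highest in neurons was 6 without the second barcode set, where CACNA1H was highest in excitatory neurons at 25.9 CPM. The share of all genes with their highest level in neurons was not computed, so neither number has a background to be set against.

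CACNA1A, the P/Q-type pore, was at 1019 CPM in excitatory neurons (1007, 1043 and 1006 in the 3 barcode sets). In inhibitory neurons it was at 923 CPM (922, 948 and 896). Its level in oligodendrocyte precursors was 1092 CPM (interval 1023 to 1164; 1071, 1140 and 1066 by set), from 934 UMIs in 377 nuclei. The lead of precursors over excitatory neurons was narrow, a log2 ratio of 0.099 (interval 0.004 to 0.19). These 3 classes stood far above the rest, which ran from 493 CPM in committed precursors and 353 in microglia down to 109 in ependymal cells. After thinning, 55.3% of excitatory, 54.3% of inhibitory and 58.6% of precursor nuclei had a CACNA1A UMI, against 19.0% of astrocytes and 12.3% of oligodendrocytes.

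CACNA1B, the N-type pore, was at 1041 CPM in inhibitory neurons (1038, 1053 and 1032 by set) and at 957 CPM in excitatory neurons (950, 965 and 956). Unlike CACNA1A, it was low in oligodendrocyte precursors, at 147 CPM. The next class after the neurons was microglia at 247 CPM, whose order against mural cells and committed precursors did not recur in all 3 sets. Thinned shares were 58.5% of excitatory and 59.3% of inhibitory nuclei, against 7.70% of astrocytes and 5.67% of oligodendrocytes.

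CACNA1E, the R-type pore, was at 950 CPM in excitatory neurons (945, 953 and 951 by set) and at 341 CPM in inhibitory neurons (351, 337 and 334). The sets of the 2 classes were far apart. Microglia were at 274 CPM, which did not differ from inhibitory neurons beyond counting error, and oligodendrocyte precursors at 265. Microglia also held 68.1% of the excitatory level of SLC17A7 and 18.2% of that of RBFOX3. Their inhibitory markers were uneven, at 1310, 412 and 403 CPM by set. The part of neuronal RNA in the microglial levels of the pore genes was not tested. Ependymal cells were at 218 CPM, astrocytes at 152 and oligodendrocytes at 122. Thinned shares were 60.7% of excitatory, 28.6% of inhibitory and 18.3% of ependymal nuclei.

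CACNA1C, the main L-type pore, was highest in mural cells (581 CPM, interval 493 to 680; 601, 551 and 617 by set), the pericytes and smooth muscle cells of vessels. It was at 476 CPM in excitatory neurons (469, 485 and 472) and at 287 in inhibitory neurons (290, 287 and 282). The order of these 3 classes was the same in each set. Endothelial cells, the other vessel class, had 85.4 CPM. Thinned shares were 40.7% of mural, 36.8% of excitatory, 23.8% of inhibitory and 8.26% of endothelial nuclei. The microglial value, 152 CPM, came mostly from 1 set (312, 72.6 and 47.4).

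CACNA1D, the L-type pore that opens at more negative voltages, was at 383 CPM in inhibitory neurons (385, 387 and 376 by set) and at 341 in excitatory neurons (339, 337 and 346). It was at 208 CPM in committed precursors, 179 in oligodendrocyte precursors and 158 in oligodendrocytes, 3 neighbours in the order that did not differ beyond counting error. Astrocytes at 60.4 and ependymal cells at 56.3 CPM were the lowest.

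Of the T-type pores, CACNA1G was shared by both classes of neurons, at 51.6 CPM in inhibitory (54.5, 50.2 and 49.99 by set) and 50.2 CPM in excitatory neurons (51.0, 48.8 and 50.8). These ranges overlapped, and outside neurons its level was at most 15.2 CPM, from 4 UMIs in microglia. CACNA1H was at 26.4 CPM in excitatory neurons (25.6, 27.5 and 26.2) and at 1.13 CPM in inhibitory neurons (1.75, 1.07 and 0.510), no more than in astrocytes at 1.77 CPM. In mural cells CACNA1H was at 34.0 CPM from 9 UMIs, with 0 in the third set, so its place above excitatory neurons is within counting error (interval 15.5 to 64.5). No CACNA1H UMI was found in either class of precursors. The exact interval of a count of 0 reaches 4.31 CPM in oligodendrocyte precursors and 12.8 CPM in committed precursors. CACNA1I was at 107 CPM in excitatory neurons (108, 106 and 106), 26.9 in oligodendrocyte precursors from 23 UMIs, and 22.6 in inhibitory neurons (23.1, 24.0 and 20.5). The last 2 did not differ beyond counting error, and every other class was at 10.7 CPM or lower.

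**Figure D1:**
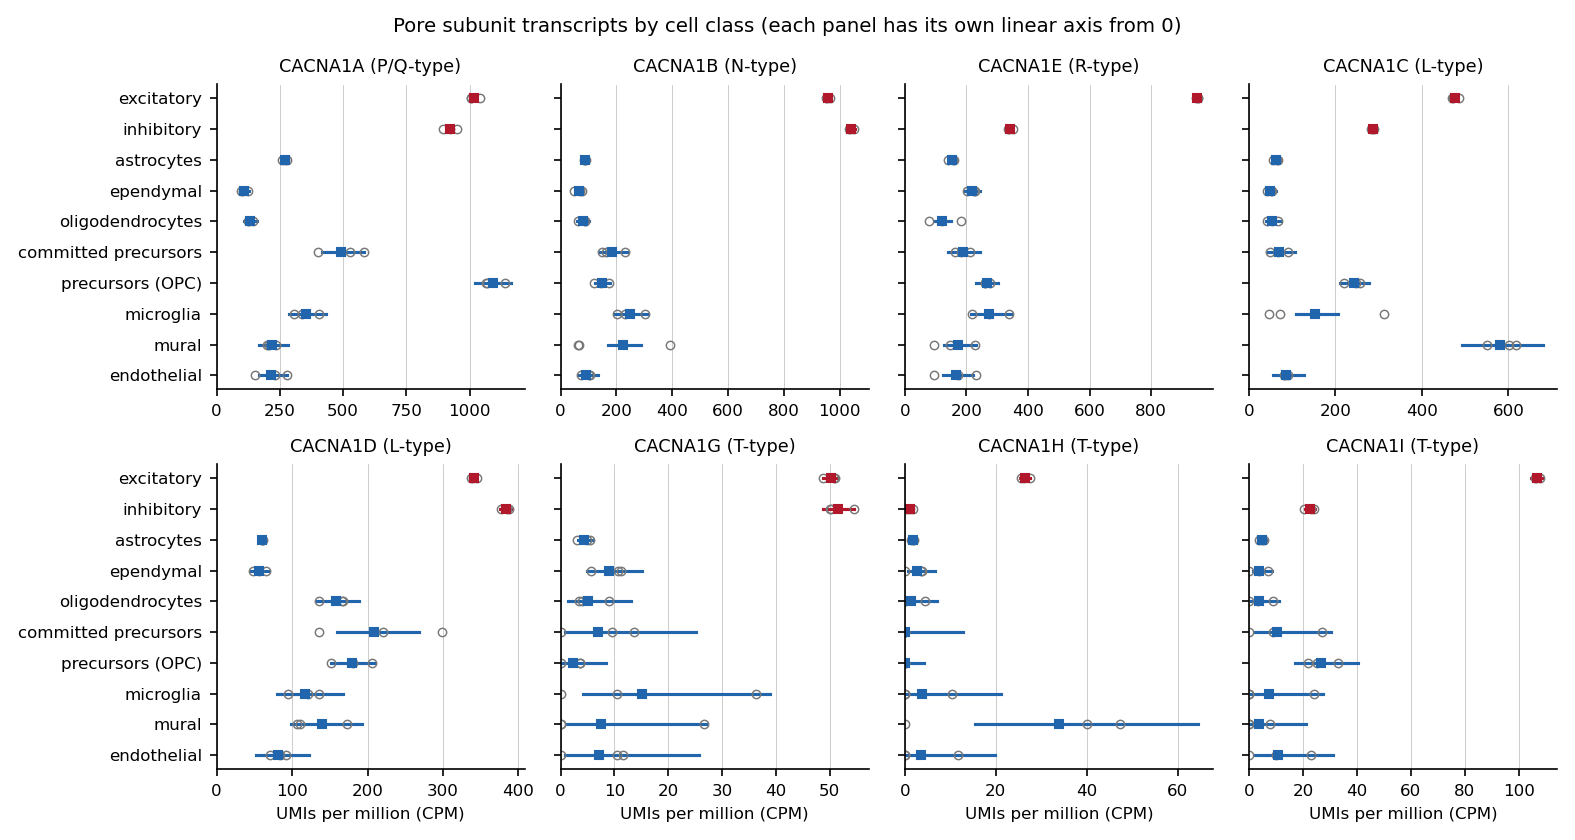
CPM of each pore gene (x axis, linear from 0, own scale in each panel) in the 10 named classes (y axis). Squares are the pool with its exact 95% Poisson interval, red for neurons and blue for other classes, and open circles are the 3 barcode sets. CACNA1A reaches 1092 CPM in oligodendrocyte precursors and CACNA1C 581 CPM in mural cells, while CACNA1E and CACNA1I peak in excitatory neurons.

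The R-type pore gene CACNA1E and the T-type pore genes CACNA1H and CACNA1I parted excitatory from inhibitory neurons. The T-type gene CACNA1G and those of P/Q-, N- and L-type channels did not reach a 2-fold difference. Excitatory neurons exceeded inhibitory ones 2-fold or more in 3 of 8 genes, beside 8.8% of the 7455 genes kept out of the clustering and measured in this comparison. The reverse held for none, beside 8.32%. The median log2 ratio of the 8 was 0.44, against -0.10 over those genes. CACNA1H differed most, with 2487 UMIs in excitatory against 28 in inhibitory neurons (log2 ratio 4.55, interval 4.01 to 5.14). With presumed doublets kept the CACNA1H ratio was 3.49. CACNA1I followed at 2.24 (2.12 to 2.37) and CACNA1E at 1.48 (1.45 to 1.51), and all 3 were higher in every barcode set.

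CACNA1C was higher in excitatory neurons by a log2 ratio of 0.73 (0.69 to 0.77), below 2-fold. CACNA1A was at 0.14, CACNA1D at -0.17, CACNA1B at -0.12 and CACNA1G at -0.04. The direction of CACNA1A, CACNA1B and CACNA1G is not settled. Scaling by the median ratio over genes moved values up by 0.13, which turned CACNA1B to 0.01 and CACNA1G to 0.09, and thinning turned CACNA1A to -0.05. CACNA1D stayed below 0 and came to -0.01 with thinning. When a cluster of 5133 excitatory nuclei, the one with most PROX1, was removed, CACNA1A was at 0.43. The count of 3 genes stayed at 3 under each alternative tried.

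**Figure D2:**
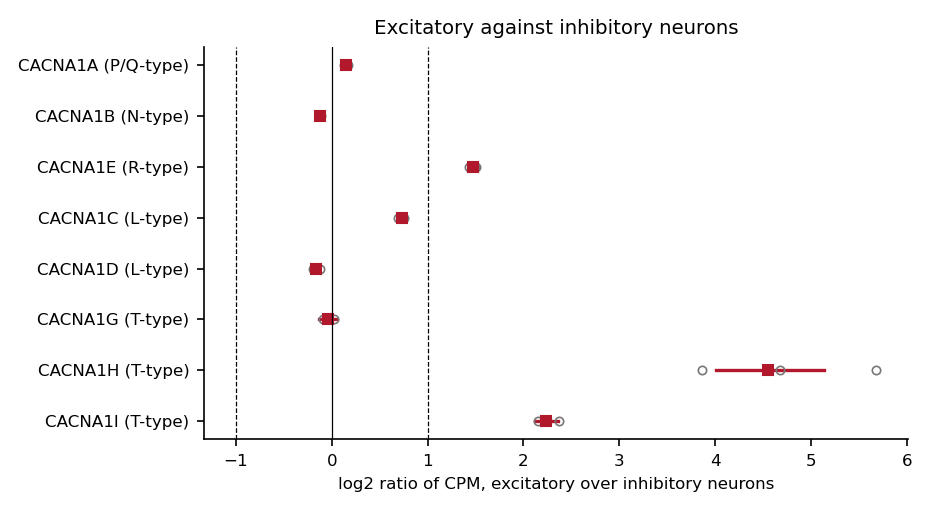
Log2 ratio of CPM in excitatory over inhibitory neurons (x axis) for each pore gene (y axis). Squares are the pool with an exact 95% interval for counting error, open circles the 3 barcode sets, and dashed lines mark 2-fold. CACNA1E, CACNA1H and CACNA1I lie beyond 2-fold in every set.

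Shares of nuclei gave the same order where they were taken at equal depth. CACNA1H UMIs were in 2.74% of thinned excitatory nuclei (interval 2.44 to 3.06) and in 0.0972% of inhibitory nuclei (0.0265 to 0.249), close to the 0.127% of astrocytes. CACNA1I was in 9.83% against 2.70%, and CACNA1C in 36.8% against 23.8%. CACNA1G was in 4.57% of excitatory and 4.66% of inhibitory nuclei, and CACNA1D in 29.3% and 29.4%. At full depth, where excitatory nuclei held more UMIs, all 8 shares were larger in excitatory neurons (CACNA1G 27.8% against 23.9%). At equal depth 5 of 8 were, among them CACNA1A, whose intervals overlapped (55.3% against 54.3%). Neither count was taken over all genes.

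Along the oligodendrocyte lineage CACNA1A was graded. It was at 1092 CPM in precursors, 493 in committed precursors (400, 527 and 584 by set) and 132 in oligodendrocytes (145, 125 and 130), and the sets of the 3 stages did not overlap. Precursors exceeded oligodendrocytes by a log2 ratio of 3.04 (2.75 to 3.35) for CACNA1A, 2.16 (1.68 to 2.68) for CACNA1C and 1.12 (0.77 to 1.48) for CACNA1E. By set CACNA1E was at 0.52, 1.11 and 1.79. CACNA1B was at 0.91 and CACNA1D at 0.18. So 3 of 5 measured pore genes were at least 2-fold higher in precursors and 0 lower, beside 18.0% higher and 14.0% lower of 1993 genes. Without the third set CACNA1E came to 0.81, under 2-fold, and CACNA1B to 1.13, over it, so the count stayed at 3 with another gene in it. Thinned to 1000 UMIs, CACNA1B was at 1.46 and joined CACNA1A, CACNA1C and CACNA1E, so the count rose. CACNA1G, CACNA1H and CACNA1I had too few UMIs for this comparison.

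Against the mean of the other 9 classes, oligodendrocyte precursors had CACNA1A higher by a log2 ratio of 1.40, as 4.93% of genes were at least 2-fold higher there. CACNA1B was lower at -1.17 and CACNA1G at -2.90, as were 16.9% of genes. That mean includes both classes of neurons. CACNA1B in precursors, at 147 CPM, was above endothelial cells at 92.5 CPM in all 3 sets. The CACNA1G level rests on 2 UMIs (2.34 CPM, interval 0.283 to 8.44) and did not differ from astrocytes beyond counting error. Relative to excitatory neurons, precursors had 107% of the CACNA1A level, 50.9% of CACNA1C, 27.9% of CACNA1E, 15.4% of CACNA1B and 4.66% of CACNA1G. Of genes of neurons they had 37.6% of the SLC17A7 level, 45.9% of SYT1, the synaptic vesicle calcium sensor, and 4.20% of RBFOX3. Excitatory markers summed to 396 CPM in precursors (389 to 406 by set), with SLC17A6 and TBR1 at 0. The part of neuronal RNA in the lower of these levels was not tested.

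Mural cells had 1 pore gene at least 2-fold higher than the mean of the other classes, CACNA1C at a log2 ratio of 1.82, among 5 measured, beside 11.3% of 3140 genes. CACNA1A was at -1.23 against the same mean. The beta subunit gene CACNB2 was at 1705 CPM in mural cells and 1694 CPM in excitatory neurons. Mural markers summed to 6360 CPM there (5473 to 7732 by set), against 24.4 CPM in excitatory neurons, and excitatory markers to 671 CPM (522 to 772; TBR1 at 0). CACNA1C stood at 122% of its excitatory level in mural cells, and SLC17A7 at 70.5%. CACNA1B in mural cells was uneven (66.8, 394 and 63.3 CPM by set), and so were Cajal-Retzius markers (13.4, 1000.1 and 111) and inhibitory markers (775, 2488 and 712), all highest in the second set. Their part in the CACNA1B value was not tested.

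Astrocytes and ependymal cells were poor in most pore genes. In astrocytes 6 of 8 were at least 2-fold below the mean of the other classes, beside 17.1% of 7373 genes. The exceptions were CACNA1A at a log2 ratio of -0.91 and CACNA1E at -0.98. In ependymal cells 6 of 8 were lower, beside 17.8% of 5872 genes, and the exceptions were CACNA1E at -0.42 and CACNA1G at -0.88. Among the 6, CACNA1H rests on 4 ependymal UMIs (2.59 CPM). The mean it was set against, 7.99 CPM, includes mural cells at 34.0 CPM. These means include both classes of neurons, and low levels were not particular to these 2 classes. Oligodendrocytes, not set against such a mean, had 132 CPM of CACNA1A against 269 in astrocytes. Their CACNA1B (78.4 against 88.1) and CACNA1C (54.0 against 62.8) did not differ beyond counting error. CACNA1D was higher in oligodendrocytes, at 158 against 60.4 CPM. Astrocytes held 26.4% of the excitatory level of CACNA1A and 4.46% of that of CACNA1I, beside 53.7% of SLC17A7, 38.3% of SNAP25, another synaptic vesicle fusion gene, 26.8% of SYT1 and 6.27% of RBFOX3. The part of neuronal RNA in these levels was not tested.

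The other calcium channel genes showed partner subunits that part the same 2 classes of neurons. The pathway lists name 60 genes, of which 50 were found by symbol in the deposited counts. Of 49 measured genes in the pathway lists 10 were at least 2-fold higher in excitatory and 8 in inhibitory neurons, beside 8.8% and 8.32% of all genes compared. The lists' median log2 ratio was 0.29, against -0.10 over those genes. Among alpha2delta subunits, CACNA2D1, a target of gabapentin, was at 867 CPM in excitatory and 388 in inhibitory neurons (log2 ratio 1.16). CACNA2D2 went the other way, at 3.21 against 50.2 CPM (-3.97). CACNA2D3 at 0.65 and CACNA2D4 at 0.51 stayed within 2-fold. Among beta subunits CACNB2 was at 1694 against 741 CPM (1.19) and CACNB4 at 194 against 429 CPM (-1.14), while CACNB1 at 0.79 and CACNB3 at -0.14 stayed within 2-fold.

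Of 6 measured gamma subunits, several of which act on AMPA receptors, CACNG6 was higher (1.32, from 123 against 13 UMIs) and CACNG4 lower (-2.13). Of 5 regulators, STAC was higher (2.75) and STAC2 lower (-1.73), both adaptors that bind L-type channels. The active-zone list, proteins that hold channels at release sites, was nearly balanced, with 9 of 10 within 2-fold (RIMS2 at -0.14, ERC2 at 0.39) and RIMS3 lower at -2.37. That list has 12 genes, and RIMS1 and UNC13A were not found by symbol. Of 14 genes for calcium stores, pumps and exchangers 6 were higher and 3 lower, with a median log2 ratio of 0.93, beside the same 8.8%, 8.32% and -0.10 over all genes compared. RYR3, a release channel of internal stores, was the most different at 3.50, followed among the higher ones by the plasma membrane pump gene ATP2B4 at 2.61 and RYR2 at 2.19, and RYR1 was lower at -2.86. SLC8A3 was lower at -2.43 and SLC8A2 higher at 1.73, both sodium-calcium exchangers. All 4 measured genes of the related sodium leak channel NALCN were within 2-fold. CACNA1F and CACNA1S, the retinal and skeletal muscle pores, were at 4.89 and 0.637 CPM in excitatory neurons and within 2-fold of inhibitory neurons.

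Excitatory neurons were clustered again into 14 sub-clusters (E1 to E14, numbered by size from 1981 to 111 nuclei) and inhibitory neurons into 12 (I1 to I12, 746 to 83 nuclei). They are described by marker genes and given no type names. E1, E3, E4 and E7 had over 150 CPM of PROX1, a transcription factor of granule cells. I1, I2, I7, I10 and I12 had over 100 CPM of LHX6, a transcription factor of interneurons from the medial ganglionic eminence. Both cut-offs were set after the values had been seen.

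**Figure D3:**
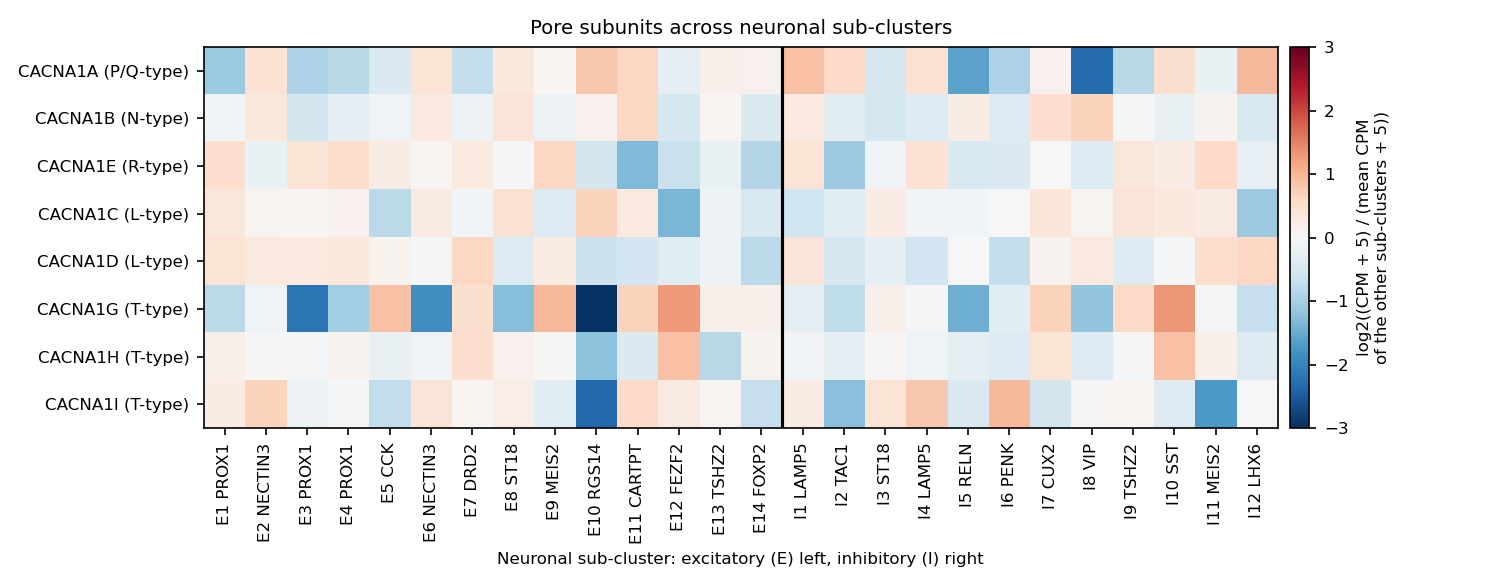
Log2 ratio of (CPM + 5) in each neuronal sub-cluster over (the mean CPM of the other sub-clusters of its class + 5), for each pore gene (rows). Columns name the sub-cluster and its leading descriptor gene, and colours run from -3 (blue) to 3 (red). CACNA1G varies most among excitatory and CACNA1A among inhibitory sub-clusters, and CACNA1H was too sparse in inhibitory neurons to be read.

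Each sub-cluster was set against the average of the remaining ones of its class. In excitatory neurons 1 of 8 pore genes (CACNA1G) exceeded that average 2-fold somewhere, beside 19.6% of 4139 genes. A level 2-fold or more under it was found for 6 of 8, beside 30%, and not for CACNA1B and CACNA1D. In inhibitory neurons 2 of 7 measured genes (CACNA1G and CACNA1I) were above, beside 15.8% of 3567 genes, and 5 of 7 below, beside 23.8%. These counts were not steady. Thinned to 1000 UMIs, none was above in either class and 3 were below in each, with 6 excitatory and 5 inhibitory genes measured. Without the first or the second set 1 inhibitory gene was above, without the second 3 were below, and without the third 2 excitatory genes were above. The log2 range over sub-clusters, with 5 CPM added, was 4.00 for CACNA1G and 1.08 for CACNA1B in excitatory neurons, where the median gene had 0.96. In inhibitory neurons it was 3.08 for CACNA1A and 1.10 for CACNA1B, where the median gene had 0.86.

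CACNA1A separated the PROX1-high sub-clusters from the other excitatory neurons. It was at 488 CPM in E1, 554 in E3, 589 in E4 and 639 in E7. In the other 10 it ran from 767 CPM in E5 over a median of 1188 to 1692 in E10, so the 2 ranges did not overlap. Summed, PROX1-high neurons were lower by a log2 ratio of -1.20 (-1.22 to -1.17; -1.25, -1.14 and -1.21 by set). The other excitatory sub-clusters summed to 1247 CPM, above the 1092 CPM of oligodendrocyte precursors. CACNA1A was the 1 pore gene at least 2-fold lower in them, beside 7.79% of 7114 genes, and none was higher, beside 5.64%. CACNA1G was just inside at -0.97, and passed 2-fold with thinning (-1.14) and with median-of-ratios scaling (-1.07). CACNA1B was at -0.41, CACNA1E at 0.50, CACNA1D at 0.37 and CACNA1H at 0.29.

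In inhibitory neurons CACNA1A covered an 8.64-fold range. The LHX6-high sub-clusters held 1532 CPM in I1, 1279 in I2, 962 in I7, 1197 in I10 and 1622 in I12. The other 7 ran from 188 CPM in I8 (174, 219 and 164 by set) and 306 in I5 to 1183 in I4, which overlapped with the LHX6-high range. Summed, LHX6-high neurons were higher by a log2 ratio of 1.23 (1.18 to 1.27), the 1 of 7 measured pore genes at least 2-fold higher, beside 2.74% of 5702 genes. None was lower, beside 2.96%. I8, described by VIP and CCK, was the lowest in CACNA1A and the highest in CACNA1B (1529 CPM; 1446, 1545 and 1586). I5, with RELN, combined 306 CPM of CACNA1A with 1154 CPM of CACNA1B. Sub-clusters with more RELN or VIP did not share the low CACNA1A, and CCK was not compared. I4 and I11 had more RELN (4742 and 4706 CPM, against 3511 in I5), with CACNA1A at 1183 and 778 CPM. I3 had more VIP (50.7 CPM, against 43.7 in I8), with 642 CPM of CACNA1A and the lowest inhibitory CACNA1B, 708 CPM.

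CACNA1B was the most even of the pore genes over both classes of sub-clusters by its ratio of highest to lowest. It ran from 646 CPM in E3 to 1373 in E11, which expresses CARTPT and CUX2, a 2.12-fold range. In inhibitory neurons it ran from 708 CPM in I3 to 1529 in I8, a 2.16-fold range. Beta subunit CACNB2 followed another pattern, lower in LHX6-high inhibitory neurons by a log2 ratio of -1.28, and CACNA2D2 was higher in them by 1.32.

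**Figure D4:**
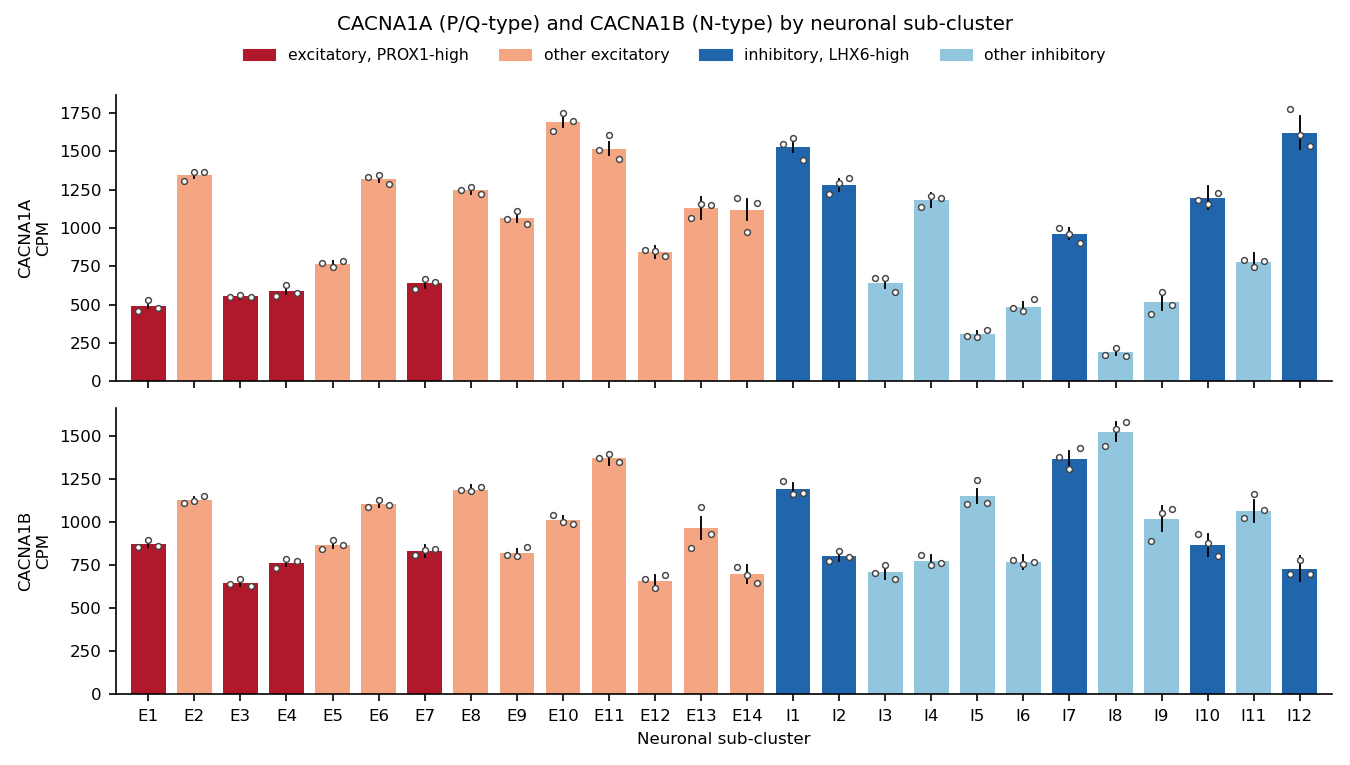
CPM of CACNA1A (top) and CACNA1B (bottom) in the 26 neuronal sub-clusters (x axis). Bars are the pool, lines the exact 95% Poisson interval, open circles the 3 barcode sets, and colours mark PROX1-high and LHX6-high sub-clusters. The 4 PROX1-high bars for CACNA1A lie at 488 to 639 CPM, below the other excitatory bars, and I8 is lowest for CACNA1A and highest for CACNA1B.

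CACNA1E was highest in E9 (1301 CPM; 1305, 1257 and 1341 by set), which expresses MEIS2, and lowest among excitatory neurons in E11 (365 CPM; 383, 372 and 343). PROX1-high sub-clusters lay at 1061 to 1229 CPM, within the range of the others. In inhibitory neurons CACNA1E ran from 173 CPM in I2 to 515 in I11. The lowest excitatory sub-cluster thus overlapped with the inhibitory ones, although the classes differ as sums.

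CACNA1C was highest in E10, described by RGS14, at 684 CPM (670, 693 and 690 by set). It was lowest in E12, described by FEZF2, at 177 CPM (194, 178 and 161), and low in E5 at 262 CPM. E12 lay below the inhibitory sum of 287 CPM. In inhibitory neurons CACNA1C ran from 144 CPM in I12 to 383 in I9. CACNA1D lay at 381 to 468 CPM in PROX1-high sub-clusters and at 185 to 380 CPM in the others, ranges that touched but did not overlap. E2, at 380 CPM, and E3, at 381, did not differ beyond counting error.

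The T-type pores differed from one another in where they were found. CACNA1G covered a 34.9-fold range in excitatory neurons, from 3.98 CPM in E10 (4.73, 4.51 and 2.65 by set, 28 UMIs) to 139 in E12 (138, 158 and 118). It exceeded the average of the rest 2-fold in E9 and E12 and was 2-fold or more under it in E3, E4, E6, E8 and E10. E2 and E6, both described by NECTIN3, had 55.0 and 13.9 CPM. Among PROX1-high sub-clusters E3 had 10.4 CPM and E7 had 84.5 CPM. In inhibitory neurons CACNA1G was highest in I10, the sub-cluster described by SST, at 136 CPM (141, 138 and 130) and next in I7, with NPY, at 92.4 CPM. It was lowest in I5 at 19.1 CPM.

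CACNA1H was found in each excitatory sub-cluster, from 9.24 CPM in E10 to 50.6 in E12, and 1 of 13 neighbours in its order differed beyond counting error in all 3 sets. In inhibitory sub-clusters it was at 5.96 CPM or lower, with at most 9 UMIs in any of them and 0 in I6, I8 and I12, where the exact interval reaches 6.58 CPM in the smallest of them. CACNA1I ran from 16.9 CPM in E10 (22.8, 10.2 and 18.1) to 155 in E2 (154, 162 and 150). In inhibitory neurons it ran from 3.98 CPM in I11, from 4 UMIs, to 45.8 in I6, which expresses PENK. E10 was thus the lowest excitatory sub-cluster for each of the 3 T-type genes and the highest for CACNA1A and CACNA1C. With 12562.5 UMIs per nucleus at the median, E10 was the deepest sub-cluster. At 1000 UMIs per nucleus its share with a CACNA1I UMI was 2.14%, against 14.4% in E2, and its share with a CACNA1A UMI was 79.8%, against 73.7%. E10 also had 6218 CPM of CACNA2D3, 5.27 times the mean of the other excitatory sub-clusters.

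**Figure D5:**
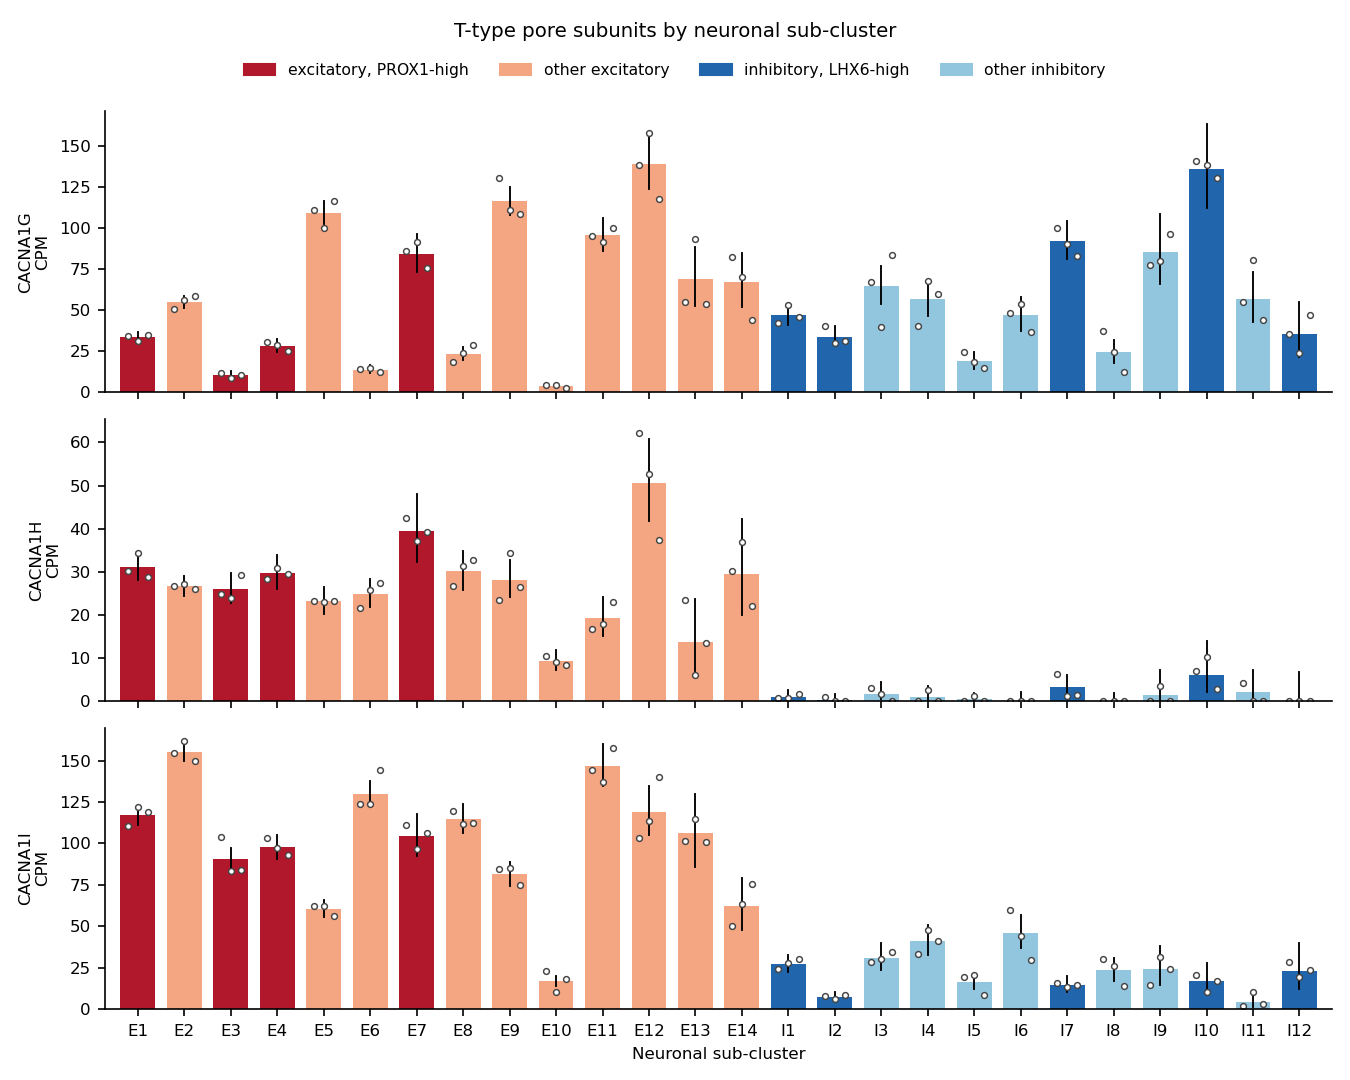
CPM of CACNA1G, CACNA1H and CACNA1I (one panel each, linear from 0) in the 26 neuronal sub-clusters (x axis), with bars, lines, circles and colours as in the plot of CACNA1A and CACNA1B. E10 is the lowest excitatory bar in all 3 panels (3.98, 9.24 and 16.9 CPM), and CACNA1H is at 5.96 CPM or lower in each inhibitory sub-cluster.

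Some pore genes varied together over sub-clusters, but the pairs differed between excitatory and inhibitory neurons. These are descriptions over points that share libraries, and depth differs between them. Over the 14 excitatory sub-clusters the Pearson correlation of log2(CPM + 5) was 0.83 between CACNA1D and CACNA1E and 0.67 between CACNA1A and CACNA1B. It was -0.69 between CACNA1A and CACNA1D, -0.65 between CACNA1A and CACNA1E, and -0.72 between CACNA1C and CACNA1G. Over the 12 inhibitory sub-clusters it was 0.28 between CACNA1D and CACNA1E and -0.46 between CACNA1A and CACNA1B. There CACNA1A was at 0.11 with CACNA1D and 0.25 with CACNA1E, and CACNA1C at 0.51 with CACNA1G. Over all 26 sub-clusters and 4403 genes, the patterns most like a pore gene were those of MATK (0.95), PDE1A (0.94) and TMEM120B (0.93) for CACNA1H. For CACNA1I they were RNF165 (0.90), NOL4L (0.86) and TUB (0.86), and for CACNA1E they included CRYZ (0.89) and EDRF1 (0.88). These 3 pore genes part the 2 classes of neurons, which such a correlation also reflects. For CACNA1C they were CEP70 (0.80), TSPAN18 (0.79) and DMXL2 (0.78), and for CACNA1G MYO9A (0.75), CAMSAP1 (0.71) and ST8SIA2 (0.69). CACNA1A was most like SRGAP2 (0.72), CARS (0.67) and SKI (0.65), CACNA1B like ENAH (0.70), RMND5B (0.69) and PRIMA1 (0.64), and CACNA1D like DNAJC15 (0.72), C14orf93 (0.69) and ERH (0.68).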

How the data were processed

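Single nuclei were profiled with a 10x Genomics 3′ kit (version 2, per the labels' protocols). The authors deposited unnormalized counts of UMIs, 151526883 in all. The submitters' processing notes name fastp, Cell Ranger 3.0.0 and GRCh38, but 5142 rows carry macaque Ensembl identifiers, so the build is unsettled and no coordinates are given. No RNA or protein sequences were used here. A 3′ assay of nuclear RNA does not separate splice forms of the pore genes.

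The pore genes and the gene lists were chosen with earlier results of these data known. From the deposited counts, a minimum of 200 detected genes per nucleus removed none. Nuclei with the highest Scrublet scores of their set were removed as likely doublets (677, 634 and 551), which left 24538. In all 68 barcode sequences occurred in 2 sets. Markers went to the clustering, the pore and calcium genes did not, and other genes were parted by a hash of their name (9893 in, 9815 out). Clustering used 2000 variable genes, 30 components, 15 neighbours and Leiden resolution 0.5 (scanpy 1.11.5, igraph 0.11.9), which gave 20 clusters.

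Inhibitory neurons needed GAD1 plus GAD2 over 300 CPM. Excitatory neurons needed SLC17A7 over 75, SV2B over 45 and RBFOX3 over 600 CPM. For other classes the log2 ratio of the markers had to average over 3 and lead the next class by 1, against nuclei outside clusters with the same best class. These thresholds were set after the data were seen, and naming was revised after values had been seen. The reference nuclei of the marker ratio were changed, since astrocytes had stayed unnamed at Leiden resolution 1. A shallow cluster of 182 nuclei (median 1405 UMIs), at first called excitatory, was left unnamed. No name was given at a median doublet score over 0.06 either (186 nuclei, 1.16, 0.678 and 0.400% by set). An inhibitory cluster led by RELN and NDNF and an excitatory one led by ST18 and ERG also had markers of other classes among their leading genes, and the comparisons of excitatory with inhibitory neurons were repeated without them.

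Counts were summed per class and scaled to CPM. A gene was measured between 2 groups if 1 held at least 50 UMIs and, at the higher of both levels, 10 or more were expected in each, and a count of 0 was set to 3 counts in ratios. A sub-cluster is compared with the mean CPM of the others of its class. The comparisons of PROX1-high and LHX6-high neurons, oligodendrocyte lineage stages, mural cells, astrocytes and ependymal cells were chosen after values had been seen. Named genes are each pore gene, each alpha2delta and beta subunit, up to 6 genes per list at least 2-fold apart between neurons, and the 3 most similar genes by correlation, of which 1 is not reported here; genes named beyond these were chosen after their values were seen. The ratio, its interval and the thinning were tested on simulated data.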

Additional observations from a re-analysis of the deposited data

How the results depend on the processing

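The count of pore genes at least 2-fold apart between excitatory and inhibitory neurons and the number of calcium pathway genes higher or lower kept within 1.5 times under every alternative run, and no result changed sign among those called. Counts over sub-clusters were less steady. Thinned to 1000 UMIs, 0 excitatory and 0 inhibitory pore genes were at least 2-fold above the other sub-clusters, and 3 and 3 were below. Fewer genes could be measured then, 6 in excitatory and 5 in inhibitory sub-clusters. Leaving out a barcode set changed counts as well. Inhibitory genes above numbered 1 without set 1 and 1 without set 2, inhibitory genes below numbered 3 without set 2, and excitatory genes above numbered 2 without set 3. In inhibitory sub-clusters 6 genes could be measured with any set left out. Without sub-clusters under 150 nuclei, inhibitory genes above numbered 1. PROX1-high neurons had 2 pore genes at least 2-fold lower when thinned and 2 with median-of-ratios scaling. Between oligodendrocyte precursors and oligodendrocytes, thinning brought CACNA1B past 2-fold (log2 ratio 1.46) and so raised the count of higher pore genes. The cause of these changes was not tested beyond the numbers measured. Shares with a UMI were larger in excitatory neurons for 8 genes when not thinned, a count not taken over all genes. No paired analysis was possible because the samples form 1 group and no column is tied to a sample. Depth limits CACNA1G, CACNA1H and CACNA1I outside neurons and CACNA1H in inhibitory sub-clusters.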
